A study of Drosophila sechellia and Drosophila melanogaster and Drosophila simulans with 18 samples.

Results

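Whole adult females of *D. sechellia* were compared with whole adult females of *D. simulans*, both fed control food, by the level of every gene that the annotations of both genomes call by the same symbol. A gene was included when its symbol was identical and unique in both tables, when it was no rRNA, snRNA, snoRNA, tRNA or mir- gene, and when its level on control food was at least 1 FPKM in either species. FPKM is the number of sequenced fragments scaled to the length of the gene model and to sequencing depth. This left 114 genes, out of 222 shared symbols, 17273 genes in the *D. sechellia* table and 15372 genes in the *D. simulans* table. They are few because 94.3% of the *D. sechellia* genes and 96.4% of the *D. simulans* genes carry a numbered symbol in place of a name. The 114 genes include 27 odorant-binding protein genes and are not a sample of the genome.

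The *D. sechellia* flies were strain 14021-0428.25 and the *D. simulans* flies strain 14021-0251.195, so each species is represented by 1 strain. Both were reared on cornmeal medium at 20 °C, collected 0 to 3 days after eclosion and kept for 24 hr on plain instant food. RNA came from 10 whole flies per library, with 3 libraries per species and food. The same strains on food with 10 mg/ml L-DOPA, 6 further libraries, and a strain of *D. melanogaster* (14021-0231.36) on control food are given beside the comparison. The authors' tables hold 1 FPKM value per gene, species and food, pooled over 3 libraries, so the values here have no SD, no n and no test, and every difference is a description of pooled values.

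*D. sechellia* lives on the fruit of *Morinda citrifolia*, which is toxic to most insects, while its close relative *D. simulans* feeds on many kinds of rotting fruit. The fruit's octanoic acid gives it much of its toxicity and its smell, and the fruit is also rich in L-DOPA, the precursor of dopamine. Work on this pair of species has centred on smell and taste proteins, on enzymes that handle toxins and on the cuticular hydrocarbons by which flies recognise mates. A level measured in whole flies mixes all tissues, so fewer cells of a type and less RNA per cell cannot be told apart.

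The tables of the species were normalized separately, and their scales differed. The median gene had an FPKM 2.24 times as high in *D. sechellia* as in *D. simulans* (log2 1.16, over 113 genes above 0 in both). Over all genes with at least 1 FPKM, small RNA classes left out, the median FPKM was 26.8 in *D. sechellia* (11754 genes) and 13.5 in *D. simulans* (9393 genes). Every difference below is therefore the log2 of *D. sechellia* over *D. simulans* FPKM minus 1.16, called the centred difference, so that 0 is the median shared gene and a positive value is higher in *D. sechellia*. As a measure that needs no common scale, the rank of a gene is given as the percentage of genes in its own table with a lower FPKM. Of 8 male reproductive genes looked up in both tables (*Acp26Aa*, *Acp26Ab*, *Acp29AB*, *Acp36DE*, *Acp62F*, *Acp70A*, *ocn* and *janB*), 6 were listed at 0 in *D. sechellia* and 3 in *D. simulans*. Other shared genes of male tissue were not in this set. Among them *Ntf-2r*, expressed in the testis of *D. melanogaster*, was at 25.4 in *D. sechellia* and 0.400 in *D. simulans*. The summed FPKM of the 8 genes was 0.891 in *D. sechellia* and 1.14 in *D. simulans*, while the female yolk protein gene *Yp2* had an FPKM of 11520 in *D. sechellia* and 16329 in *D. simulans*.

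The levels of the shared genes spread widely around the median. The lower quartile of the centred differences was -0.99 and the upper quartile 1.18. A difference of at least 2-fold was found for 31 genes that were higher in *D. sechellia* (27.4% of 113) and 27 that were lower (23.9%), and a difference of at least 4-fold for 18 that were higher (15.9%) and 13 that were lower (11.5%). The minimum of 1 FPKM was applied before centring, and 11 genes reached it only in *D. sechellia* and 4 only in *D. simulans*. Such genes were included through the species with the higher FPKM. With the centre placed on the 63 genes with at least 10 FPKM in both species, where the log2 offset was 0.67, the counts at 2-fold were 44 higher and 19 lower. Across the 113 genes, log2 FPKM in the pair had a Pearson r of 0.68 and the FPKM values a Spearman rho of 0.68. These correlations run across genes, which are not independent replicates, and are given as a description.

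**Figure D1:**
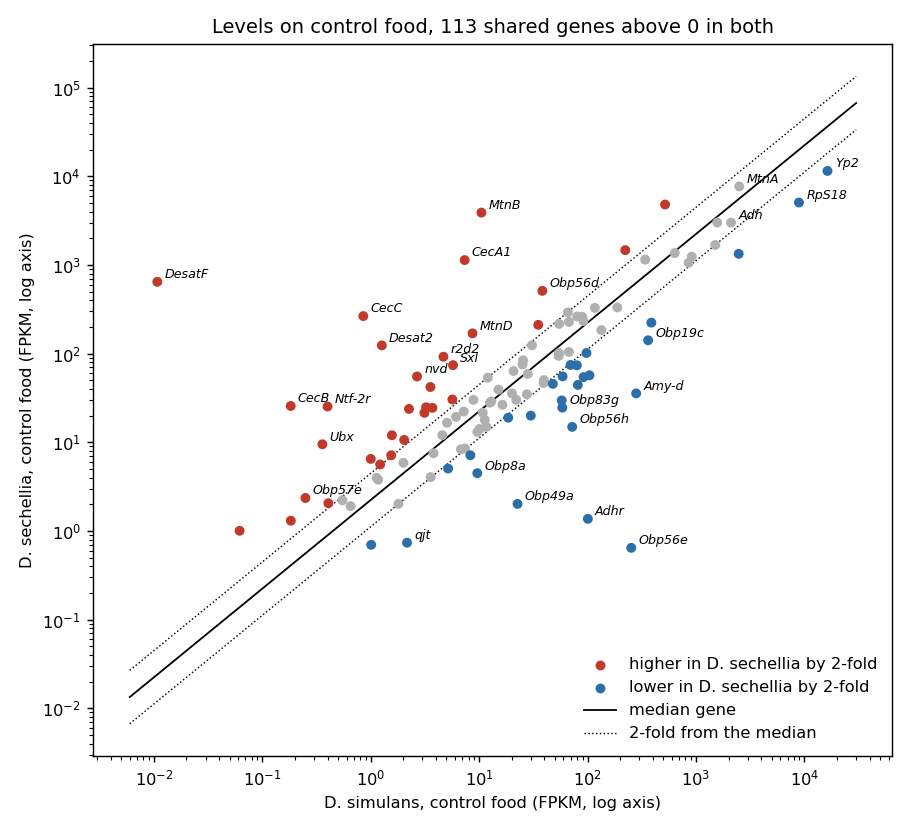
FPKM on control food in *D. sechellia* (vertical, log axis) and *D. simulans* (horizontal, log axis), 1 point per gene for the 113 genes above 0 in both, with the median gene as a solid line and 2-fold from it as dotted lines. The 31 red points lie 2-fold or more above the line and the 27 blue points 2-fold or more below it, with *DesatF*, *MtnB* and the cecropin genes far above and *Obp56e* and *Adhr* far below.

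The largest difference of all was that of *DesatF*, which with *Desat2* encodes a fatty acid desaturase of the oenocytes. In *D. melanogaster*, *DesatF* makes the second double bond of the female's diene pheromones, and *Desat2* sets the position of a double bond in females of some populations. *DesatF* had an FPKM of 648 in *D. sechellia* and 0.0108 in *D. simulans* on control food, and 214 in *D. sechellia* and 0.0311 in *D. simulans* on L-DOPA food. The gene thus ranked above 97.5% of genes in *D. sechellia*, and in *D. simulans* above 14.9%. Its centred difference was 14.71, which rests on a value near 0 and falls to 8.32 when 1 is added to both FPKM values. *Desat2* had an FPKM of 124 in *D. sechellia* and 1.27 in *D. simulans* on control food, a centred difference of 5.45, and 161 in *D. sechellia* and 0.880 in *D. simulans* on L-DOPA food, a centred difference of 6.11. *Desat2* in *D. melanogaster* was at 96.3. The gene models of the desaturases have similar spans in the annotations. *DesatF* runs from 3239851 to 3240915 on scaffold_0 of dsec_caf1 (FBgn0265521), and from 10762836 to 10764141 on chromosome 3L of ASM75419v3 (FBgn0185956). *Desat2* runs from 13683759 to 13685095 on scaffold_0 (FBgn0178900), and from 12850827 to 12852744 on chromosome 3R (FBgn0261743).

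The metallothionein genes encode small cysteine-rich proteins that bind copper, zinc and cadmium, and 3 of the 4 with a shared symbol were higher in *D. sechellia* by more than 4-fold. *MtnB* had an FPKM of 3907 in *D. sechellia* and 10.5 in *D. simulans*, a centred difference of 7.37, with 405 in *D. melanogaster*. On L-DOPA food *MtnB* was at 1998 in *D. sechellia* and 11.1 in *D. simulans*. *MtnD* had 169.8 in *D. sechellia* and 8.69 in *D. simulans* (centred difference 3.12), with 269 in *D. melanogaster*. *MtnC* had 4819 in *D. sechellia* and 519 in *D. simulans* (2.05). *MtnA*, the most abundant of the 4 in *D. sechellia* and in *D. simulans*, differed least, with 7701 in *D. sechellia* and 2506 in *D. simulans* (0.46). The 4 genes summed to 16597 in *D. sechellia* and 3044 in *D. simulans* on control food, and the centred difference of the sums was 1.28. *MtnB* thus stood near *MtnC* and *MtnA* in *D. sechellia*, and far below them in *D. simulans*. On L-DOPA food the centred difference was 2.90 for *MtnA* and 5.89 for *MtnD*, larger than on control food, and 6.09 for *MtnB* and 0.75 for *MtnC*, smaller than on control food. *MtnD* shares its span with another gene in *D. simulans*. The other models are short, and *MtnB* spans 193 bases in *D. sechellia* (403009 to 403201 on scaffold_27 of dsec_caf1) and 646 bases in *D. simulans* (4973498 to 4974143 on chromosome 3R of ASM75419v3). With FPKM multiplied by the annotated span, introns included, the centred difference was 6.06 for *MtnB* and 1.49 for *MtnC*.

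The cecropin genes, which encode antibacterial peptides made by the fat body and other tissues, formed the other group far above the median. *CecA1* had an FPKM of 1138 in *D. sechellia* and 7.36 in *D. simulans*, a centred difference of 6.11. *CecC* had 266 in *D. sechellia* and 0.855 in *D. simulans* (7.12), and *CecB* had 25.8 in *D. sechellia* and 0.183 in *D. simulans* (5.97). Relative to the median gene, each of these 3 cecropin genes was higher in *D. sechellia*, by 62.8-fold for *CecB* and more for the others. A cecropin gene without a shared symbol could not be included. The *CecB* value rests on a *D. simulans* level near 0 with too few reads for the authors' own test, and its centred difference was 3.49 with 1 added to both values. By FPKM, *CecA1* made up most of the total of these 3 in each species. The genes are near copies of each other whose reads could be split between them, and each value is divided by the length of its own model. The sum over these 3 copies, which leaves out any copy without a shared symbol, was 1430.2 in *D. sechellia* and 8.40 in *D. simulans* (centred difference 6.25). In *D. melanogaster* the sum was 26.2. On L-DOPA food the sum was 443 in *D. sechellia* and 53.3 in *D. simulans*, a centred difference of 1.65, and most of the change between foods lay in *CecA1*, with 314 in *D. sechellia* and 52.4 in *D. simulans*. These copies lie close together, between 4888667 and 4894161 on scaffold_4 of dsec_caf1 and between 25381827 and 25387592 on chromosome 3R of ASM75419v3. Their models are also short in *D. sechellia* (250 to 262 bases, against 434 to 616 in *D. simulans*), and FPKM multiplied by span gave centred differences of 5.74 for *CecA1*, 5.10 for *CecB* and 6.41 for *CecC*.

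The other immune genes differed far less. The thioester proteins are secreted molecules related to complement, and *Tep6* was at 24.9 FPKM in *D. sechellia* and 3.24 in *D. simulans* (centred difference 1.78). *Tep4* was at 125 in *D. sechellia* and 30.8 in *D. simulans* (0.86), and *Tep2* at 34.9 in *D. sechellia* and 27.6 in *D. simulans* (-0.82). *Rel*, the NF-kappaB factor that turns on cecropin genes in *D. melanogaster*, was at 53.7 in *D. sechellia* and 12.02 in *D. simulans*, just under 2-fold from the median at 0.99. Of the 7 immune genes, 4 were higher by 2-fold and 0 were lower, with a median of 1.78, where 27.4% of all 113 genes were higher and 23.9% lower. Of those 4, 3 were the neighbouring cecropin copies. *CecB* and *CecC* reached 1 FPKM only in *D. sechellia*, so they were included through the species where their level was higher. *Anp*, a gene of the male reproductive tract in *D. melanogaster* that lies in the cecropin cluster, was below the minimum at 0 in *D. sechellia* and 0.0762 in *D. simulans*, as was *Tep1*.

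Odorant-binding proteins carry odorants and tastants through the fluid around the receptor neurons, and some are also made outside the sense organs. The tables share 46 of these genes, of which 27 reached 1 FPKM in either species and 19 did not. Among the 26 with a ratio, 6 were higher in *D. sechellia* by 2-fold, 7 were lower and 13 lay within 2-fold, and the median centred difference was 0.23. These shares were near those of all 113 genes (27.4% higher and 23.9% lower). On L-DOPA food 5 of the 27 were higher by 2-fold and 12 lower, with a median of -0.45, where 23.7% of all genes were higher and 31.6% lower. Members of the *Obp56* and *Obp99* clusters lay on both sides of the median. The 27 genes summed to 6163 FPKM in *D. sechellia* and 4833 in *D. simulans*.

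**Figure D2:**
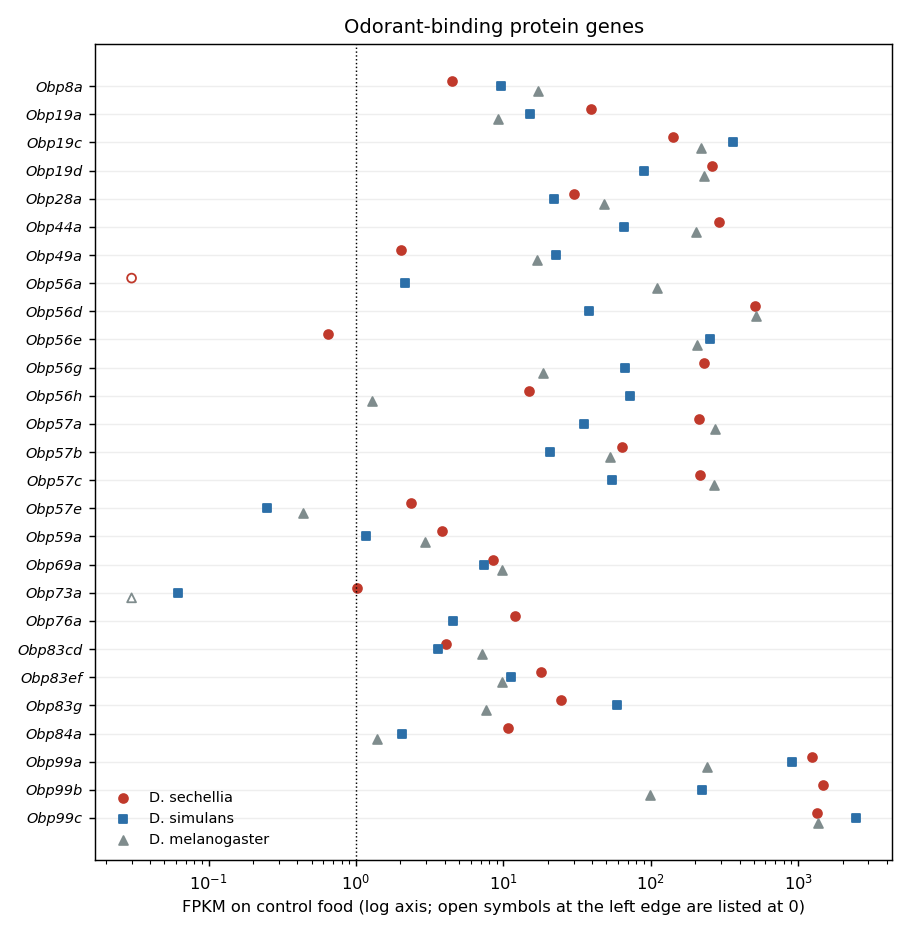
FPKM on control food (horizontal, log axis) of the 27 odorant-binding protein genes in *D. sechellia* (circles), *D. simulans* (squares) and *D. melanogaster* (triangles), with open symbols for genes listed at 0 and a dotted line at 1 FPKM. *Obp56e* stands out with a *D. sechellia* value of 0.648 beside a *D. simulans* value of 253, and *Obp56d* with 512 beside 38.3.

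The *Obp56* cluster held the largest difference of the family. *Obp56e* had an FPKM of 0.648 in *D. sechellia* and 253 in *D. simulans*, a centred difference of -9.77, the lowest of all shared genes. It was at 206 in *D. melanogaster*, and on L-DOPA food at 1.94 in *D. sechellia* and 439 in *D. simulans*. Its neighbour *Obp56d* went the other way, with 512 in *D. sechellia* and 38.3 in *D. simulans* (2.58), and with 519 in *D. melanogaster*. *Obp56a* was listed at 0 in *D. sechellia* and at 2.15 in *D. simulans*, and was at 109.6 in *D. melanogaster*. *Obp56h*, whose reduction alters mating behaviour in *D. melanogaster*, was at 14.97 in *D. sechellia* and 72.2 in *D. simulans* (-3.43). *Obp56g* was at 228 in *D. sechellia* and 67.4 in *D. simulans* (0.60). In dsec_caf1, *Obp56d* (562 to 1025) and *Obp56e* (9592 to 10039) lie on the small scaffold_337, apart from *Obp56a*, *Obp56g* and *Obp56h* on scaffold_1. In ASM75419v3 the span given for *Obp56g* and *Obp56h* is that of 7 overlapping genes, so their levels there are less certain.

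The *Obp57* cluster is the one whose *Obp57d* and *Obp57e* genes are known to affect the attraction of *D. sechellia* to its host fruit. All 4 members above the minimum were above the median gene in *D. sechellia*. *Obp57e* had an FPKM of 2.36 in *D. sechellia* and 0.250 in *D. simulans*, a centred difference of 2.08 that came to 0.42 with 1 added to both values, since the gene was low in each species. *Obp57d* was under the minimum, with 0.776 in *D. sechellia* and 0.145 in *D. simulans*. *Obp57a* had 212 in *D. sechellia* and 35.1 in *D. simulans* (1.43), while *Obp57c* had 217 in *D. sechellia* and 54.7 in *D. simulans* (0.82) and *Obp57b* had 63.8 in *D. sechellia* and 20.8 in *D. simulans* (0.45). The *D. melanogaster* values of *Obp57a*, *Obp57b* and *Obp57c* were 272, 53.0 and 268. On L-DOPA food the centred differences were 2.17 for *Obp57e*, 1.53 for *Obp57a*, -0.022 for *Obp57b* and -0.45 for *Obp57c*, so that only *Obp57e* and *Obp57a* were above the median by 2-fold on both foods.

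*Obp99a*, *Obp99b* and *Obp99c* were the 3 most abundant of the 27 odorant-binding protein genes in *D. sechellia*. *Obp99d* was under the minimum, at 0 in *D. sechellia* and 0.0838 in *D. simulans*. *Obp99b* had an FPKM of 1474 in *D. sechellia* and 223 in *D. simulans* (1.56), and *Obp99c* had 1339 in *D. sechellia* and 2477 in *D. simulans* (-2.05). *Obp99a* had 1246 in *D. sechellia* and 914 in *D. simulans* (-0.72). The 3 genes thus stood at similar levels in *D. sechellia*, whereas in *D. simulans* *Obp99c* exceeded *Obp99b* by more than 10-fold. In *D. simulans*, *Obp99c* shares its span of 4378 bases with another gene, so its level there is less certain. *Obp99b* did not keep its place on L-DOPA food, with 508 in *D. sechellia* and 316 in *D. simulans* and a centred difference of -0.72. *Obp99c* was at 976 in *D. sechellia* and 3185 in *D. simulans* on that food (-3.11).

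Further odorant-binding protein genes below the median by 2-fold were *Obp49a*, *Obp19c*, *Obp83g* and *Obp8a*. *Obp49a*, a taste gene that takes part in the suppression of sweet taste by bitter compounds in *D. melanogaster*, had an FPKM of 2.02 in *D. sechellia* and 22.6 in *D. simulans* (-4.64), with 16.9 in *D. melanogaster*. *Obp19c* had 142 in *D. sechellia* and 362 in *D. simulans* (-2.51), while its neighbours *Obp19a* (0.22) and *Obp19d* (0.38) were close to the median. *Obp83g* had 24.7 in *D. sechellia* and 58.6 in *D. simulans* (-2.41), and the adjoining *Obp83cd* (-0.98) and *Obp83ef* (-0.49) were within 2-fold of it. *Obp8a* had 4.50 in *D. sechellia* and 9.62 in *D. simulans* (-2.26). Each of these 4 genes was lower in *D. sechellia* even before centring, and each was lower by more than 2-fold on L-DOPA food (centred differences -4.36, -4.05, -2.10 and -1.93). Above the median by 2-fold were also *Obp84a*, with 10.7 in *D. sechellia* and 2.04 in *D. simulans* (1.22), and *Obp73a*, with 1.01 in *D. sechellia* and 0.0619 in *D. simulans*. *Obp73a* just passed the minimum, and its centred difference of 2.86 became -0.088 with 1 added to both values and -0.10 on L-DOPA food. *Obp76a*, known as *lush* and needed in *D. melanogaster* to sense the pheromone cVA, was close to the median, with 12.1 in *D. sechellia* and 4.58 in *D. simulans* (0.23). The remaining ones, *Obp28a*, *Obp44a*, *Obp59a* and *Obp69a*, lay between -0.96 and 0.99.

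Among the sugar-digesting enzymes, the amylase gene *Amy-d* was lower and the amylase-related gene *Amyrel* higher in *D. sechellia* on control food. The sign for *Amy-p* changed when FPKM was multiplied by span. *Amy-d* had an FPKM of 35.7 in *D. sechellia* and 281 in *D. simulans* (-4.14), and *Amy-p* had 55.5 in *D. sechellia* and 58.9 in *D. simulans* (-1.25). The amylase genes are near-identical copies, and the *Amy-p* model spans 1487 bases in *D. sechellia* and 488 bases in *D. simulans*, and with FPKM multiplied by span its centred difference was 0.79. The sum of both genes, which also depends on the model lengths, was 91.2 in *D. sechellia* and 339.7 in *D. simulans* on control food (-3.06), and 63.9 in *D. sechellia* and 1048 in *D. simulans* on L-DOPA food (-5.44). It was 578 in *D. melanogaster* on control food. *Amyrel*, a diverged relative of amylase, had 23.9 in *D. sechellia* and 2.26 in *D. simulans* (2.24). On L-DOPA food *Amyrel* was at 13.1 in *D. sechellia* and 7.03 in *D. simulans*, and the difference changed sign (-0.51). The maltase gene *Mal-B2* had 44.5 in *D. sechellia* and 81.4 in *D. simulans* (-2.03), and *Mal-A1* had 329 in *D. sechellia* and 117 in *D. simulans* (0.33). *Amyrel* and the maltase genes share their spans with other genes in *D. simulans*, *Mal-B2* in a span of 11 genes.

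*Adh*, the alcohol dehydrogenase with which fruit-feeding flies break down ethanol, was among the 5 most abundant shared genes in *D. simulans*. It had an FPKM of 3013 in *D. sechellia* and 2107 in *D. simulans* (-0.65), and 3998 in *D. melanogaster*. *Adhr*, the related gene directly downstream, had 1.38 in *D. sechellia* and 101 in *D. simulans* (-7.36), and 1.14 in *D. melanogaster*. *Adh* and *Adhr* share a span with other genes in each annotation, so reads could be assigned to either, and the values of *Adhr* are uncertain. Their sum, made up almost wholly by *Adh*, was 3014 in *D. sechellia* and 2207 in *D. simulans* (-0.71). *Zw*, the first enzyme of the pentose phosphate pathway, had 94.6 in *D. sechellia* and 54.2 in *D. simulans* (-0.36), and *Gld*, glucose dehydrogenase, had 3.98 in *D. sechellia* and 1.14 in *D. simulans* (0.65). Of the 9 metabolic genes 1 was higher by 2-fold and 4 were lower, *Amy-p* and *Adhr* among them, and their median was -0.65, beside 27.4% higher and 23.9% lower of all 113 genes.

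Apart from the metallothioneins, the genes of detoxification and stress defence lay within 2-fold of the median or below it. *Est-6*, an esterase that in *D. melanogaster* males is passed to the female in the seminal fluid, had an FPKM of 54.5 in *D. sechellia* and 91.9 in *D. simulans* (-1.92). The juvenile hormone epoxide hydrolase genes *Jheh3* and *Jheh1* were at -1.27 and -0.91. *Jheh3* had an FPKM of 74.0 in *D. sechellia* and 79.7 in *D. simulans*. *GstD1*, a glutathione S-transferase that acts on insecticides and peroxides, had 1366 in *D. sechellia* and 637 in *D. simulans* and lay at the median (-0.064), but its model spans 630 bases in *D. sechellia* and 3191 bases in *D. simulans*, and FPKM multiplied by span gave -1.98. The antioxidant genes *Sod* and *Cat* were at -0.999 and -0.34, *Sod* falling just short of 2-fold, and *Trx-2*, a thioredoxin, was at 0.60. The chaperone genes *Hsp83*, *DnaJ-1* and *Hsp68*, and the co-chaperone gene *Cdc37*, ranged from -0.85 to -0.087, *DnaJ-1* and *Cdc37* standing outside the list. Of the 13 genes in this list, 3 were higher by 2-fold, all metallothionein genes, and 2 were lower, with a median of -0.17, beside 27.4% higher and 23.9% lower of all 113 genes.

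*Yp2* was the most abundant shared gene in each species. It encodes a yolk protein that the fat body and the ovarian follicle cells secrete for uptake by the oocyte. Its FPKM of 11520 in *D. sechellia* and 16329 in *D. simulans* was a centred difference of -1.67 on control food. On L-DOPA food it had 6728 in *D. sechellia* and 22707 in *D. simulans* (-3.16). *Yp2* shares its span with other genes in ASM75419v3. In both tables it ranked above 99.9% of genes, so that the difference shows only on the FPKM scale. *RpS18*, a ribosomal protein gene, had 5076 in *D. sechellia* and 8911 in *D. simulans* (-1.98).

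Genes of the germline and of cell division lay on both sides of the median. *nos*, a translational repressor needed for germ cells and for the posterior of the embryo, had an FPKM of 263 in *D. sechellia* and 80.2 in *D. simulans* (0.55). *bcd*, the maternal head morphogen that nurse cells load into the oocyte, had 14.2 in *D. sechellia* and 10.1 in *D. simulans* (-0.67). *mus209*, the sliding clamp of DNA replication, had 224 in *D. sechellia* and 388 in *D. simulans* (-1.95), and on L-DOPA food 283 in *D. sechellia* and 339.8 in *D. simulans*. *plu*, which lies next to *mus209* and is needed for the first embryonic divisions, had 84.5 in *D. sechellia* and 25.5 in *D. simulans* (0.57). *Top2*, DNA topoisomerase II, had 75.7 in *D. sechellia* and 25.2 in *D. simulans* (0.43). The kinetochore gene *mitch* was at -0.33, the cell cycle inhibitor gene *rux* at 0.50 and the centriolar gene *Cp110* at -1.38.

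The chromatin genes were also divided. *cid*, the histone of the centromere, had an FPKM of 30.5 in *D. sechellia* and 5.67 in *D. simulans* on control food (1.26), and 65.7 in *D. sechellia* and 3.47 in *D. simulans* on L-DOPA food (2.84). It was at 25.3 in *D. melanogaster*. The *cid* model spans 678 bases in *D. sechellia* and 1391 bases in *D. simulans*, and FPKM multiplied by span gave a centred difference of 0.65 on control food, within 2-fold. *Hmr*, which contributes to the death of hybrid males between *D. melanogaster* and its relatives, had 5.07 in *D. sechellia* and 5.18 in *D. simulans* on control food (-1.19), and 13.9 in *D. sechellia* and 4.39 in *D. simulans* on L-DOPA food (0.26). The heterochromatin protein genes were spread out, with *HP1A* at 0.19, *HP1B* at -1.07 and *HP1C* at -2.12. *HP1C* had 29.8 in *D. sechellia* and 57.8 in *D. simulans*, while *HP1B* had 74.8 in *D. sechellia* and 69.9 in *D. simulans* and was lower only after centring. The *D. simulans* span of *HP1C* is shared with another gene. *SuUR*, which slows replication in heterochromatin, was at 0.56, and the chromatin enzyme genes *Rpd3* and *Chd3* were at -0.52 and -0.72. *HP1E* was listed at 0 in both tables.

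Of the 8 embryo patterning and homeotic genes, 5 were higher in *D. sechellia* by 2-fold and 0 were lower, with a median of 1.11, where 27.4% of all 113 genes were higher and 23.9% lower. *Ubx*, *Abd-B* and *ey* reached 1 FPKM only in *D. sechellia*, so they were included through the species where their level was higher. Most were low in both species, and with 1 added to both values only *Ubx* (1.95) and *Sry-alpha* (1.44) of the 5 were higher by 2-fold. On L-DOPA food 3 of the 8 were higher by 2-fold and 1 was lower, with a median of 0.46. Of all 114 genes on that food, 23.7% were higher and 31.6% lower. *Sry-alpha*, used when cells form in the early embryo, had an FPKM of 21.6 in *D. sechellia* and 3.13 in *D. simulans* on control food (1.62), and 1.20 in *D. sechellia* and 1.75 in *D. simulans* on L-DOPA food (-1.95). The early embryonic gene *ftz* was under the minimum in both species, with 0.693 in *D. sechellia* and 0.287 in *D. simulans* on control food, and it was listed at 0 in both on L-DOPA food. *kni*, a gap gene, had 5.64 in *D. sechellia* and 1.22 in *D. simulans* (1.04), and *sog*, an inhibitor of BMP signalling, had 6.52 in *D. sechellia* and 1.00 in *D. simulans* (1.54). *Abd-B* had 2.06 in *D. sechellia* and 0.407 in *D. simulans* (1.18), and this fell to 0.11 with 1 added to both values. *Ubx* had 9.53 in *D. sechellia* and 0.359 in *D. simulans* (3.57). Its model spans 411 bases in *D. sechellia* and 76154 bases in *D. simulans*, and FPKM multiplied by span, introns included, gave -3.54. Exon lengths were not compared, so whether its direction depends on the gene model was not tested.

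In sex determination, *Sxl* and *tra* differed in opposite directions. *Sxl*, the switch gene that is on in females, had an FPKM of 74.4 in *D. sechellia* and 5.75 in *D. simulans* (2.53), and 41.2 in *D. melanogaster*. *Sxl* on L-DOPA food was at 66.9 in *D. sechellia* and 4.68 in *D. simulans* (2.43). *tra*, whose RNA is spliced under the control of *Sxl*, had 57.2 in *D. sechellia* and 104 in *D. simulans* (-2.03), and its model covers 184 bases in *D. sechellia* and 1022 bases in *D. simulans*, with a centred difference of -4.08 when FPKM was multiplied by span. *fru*, which acts downstream in the nervous system, was at 0.39. The *Sxl* model was also shorter in *D. sechellia* (7058 bases, against 21235 bases in *D. simulans*), and FPKM multiplied by span gave it a centred difference of 1.37.

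Pigmentation genes were few. *w*, a transporter of eye pigment precursors, had an FPKM of 24.5 in *D. sechellia* and 3.71 in *D. simulans* (1.56), and *y*, needed for black cuticle pigment, had 12.04 in *D. sechellia* and 1.57 in *D. simulans* (1.78). The *D. simulans* span of *y* is shared by 12 genes. *Dat*, which acetylates dopamine and so takes it out of use, had 102 in *D. sechellia* and 97.7 in *D. simulans* on control food (-1.10), and 61.2 in *D. sechellia* and 112 in *D. simulans* on L-DOPA food (-2.28). Before centring, *Dat* was not lower in *D. sechellia* on control food.

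Several genes outside these groups stood far above the median. *nvd*, which encodes the oxygenase that starts ecdysone synthesis from cholesterol, had an FPKM of 55.4 in *D. sechellia* and 2.68 in *D. simulans* (3.21), and 1.79 in *D. melanogaster*. On L-DOPA food *nvd* was at 55.2 in *D. sechellia* and 2.06 in *D. simulans* (3.34). *r2d2*, the partner of Dicer-2 in antiviral RNA interference, had 92.6 in *D. sechellia* and 4.69 in *D. simulans* (3.14), and on L-DOPA food 113 in *D. sechellia* and 3.93 in *D. simulans* (3.44). *Src64B*, a kinase needed for the ring canals between nurse cells and oocyte, had 42.2 in *D. sechellia* and 3.56 in *D. simulans* (2.40). *Ntf-2r*, a retrogene expressed in the testis of *D. melanogaster*, had 25.4 in *D. sechellia* and 0.400 in *D. simulans* (4.83). *Ntf-2r* could share reads with its parent gene, and its span in *D. simulans* is that of 5 overlapping genes. *nvd* and *Src64B* also share their span with another gene in *D. simulans*. *pnt*, an Ets factor of EGF receptor signalling, was at 1.05, and *r-cup* at 1.67, with *r-cup* at 1.31 in *D. sechellia* and 0.184 in *D. simulans*.

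Lower by 2-fold, outside the groups above, were *Es2* (-1.74), *beta4GalT7* (-1.23), *Dsk* (-1.13), *bap* (-1.69) and *qjt* (-2.71). *Dsk*, the neuropeptide drosulfakinin that signals satiety, had an FPKM of 19.0 in *D. sechellia* and 18.6 in *D. simulans*, so it was lower only after centring. *bap* and *qjt* were near the minimum, with 0.700 in *D. sechellia* and 1.01 in *D. simulans* for *bap* and 0.740 in *D. sechellia* and 2.16 in *D. simulans* for *qjt*. The muscle gene *Mlc1*, a myosin light chain, was at -0.22 from 3020.2 in *D. sechellia* and 1570.2 in *D. simulans*, and the laminin gene *LanB2* at -0.80. The remaining genes, which lay within 2-fold of the median, were *Atg9*, *Ate1*, *oxt*, *ST6Gal*, *crm*, *z*, *janA*, *cbt*, *sm*, *ey*, *beta-CA* and *bru-3*, from -0.99 for *ST6Gal* to 0.86 for *bru-3*. Genes just under the minimum were *janB*, with 0.844 in *D. sechellia* and 0.673 in *D. simulans*, and *ppk6*, with 0.810 in *D. sechellia* and 0.00897 in *D. simulans*.

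**Figure D3:**
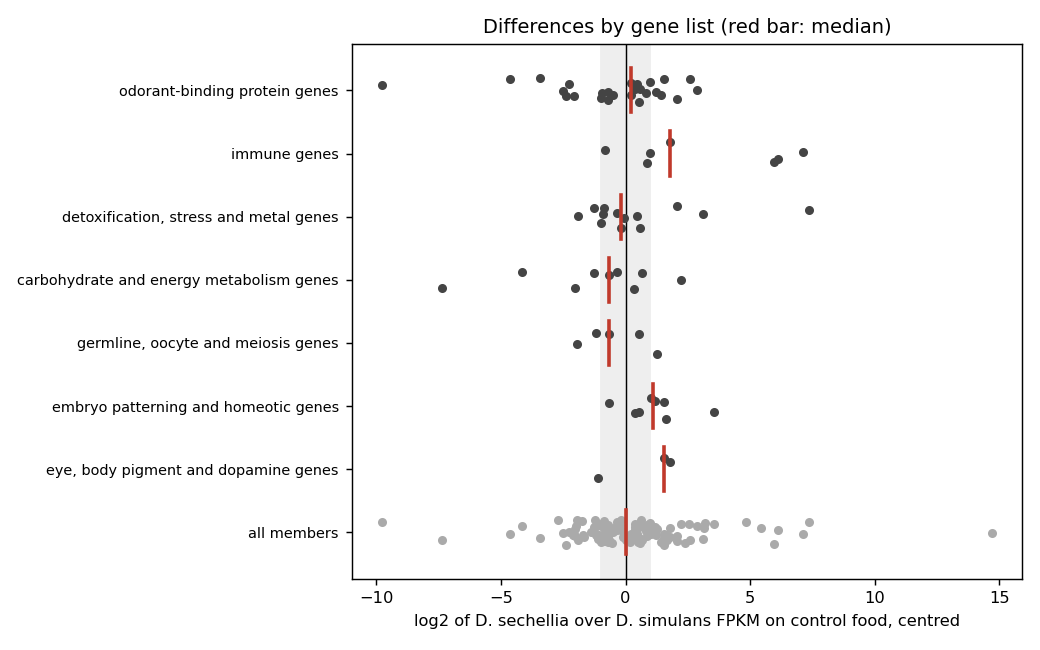
Centred log2 difference on control food (horizontal) of each gene, by gene list, with the list median as a red bar, all 113 genes in the lowest row and the range within 2-fold shaded. Immune genes (median 1.78) and embryo patterning genes (1.11) sit mostly to the right of 0, metabolic genes (-0.65) mostly to the left, and odorant-binding protein genes (0.23) on both sides. Some immune and embryo patterning genes reached 1 FPKM only in *D. sechellia*.

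The libraries on L-DOPA food are other flies of the same strains and were not used to choose the genes. Centred on their own median (log2 1.41), they gave 27 genes higher in *D. sechellia* by 2-fold (23.7% of 114) and 36 lower (31.6%), and at 4-fold 19 higher (16.7%) and 16 lower (14.0%). Of the 31 genes that were higher by 2-fold on control food, 27 were also above the median on L-DOPA food, 22 of them by 2-fold. Of the 27 genes that were lower by 2-fold, 26 were also below the median, 25 of them by 2-fold. The differences on the foods had a Pearson r of 0.92 and a Spearman rho of 0.89 across 113 genes, given as a description. The median change of a gene's difference between foods was 0.36 in size, and the difference of 21 genes moved by at least 2-fold. *CecA1*, *MtnD*, *MtnA*, *Amyrel*, *Amy-d*, *Amy-p*, *Sry-alpha*, *Obp99b* and *cid* were among these. The level on L-DOPA food differed from that on control food by 2-fold or more for 17 of the 114 genes in *D. sechellia* and for 6 in *D. simulans*. Most of the species differences past 2-fold were thus present on both foods. Both foods were measured with the same gene models and shared spans, so this is not a check on those.

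**Figure D4:**
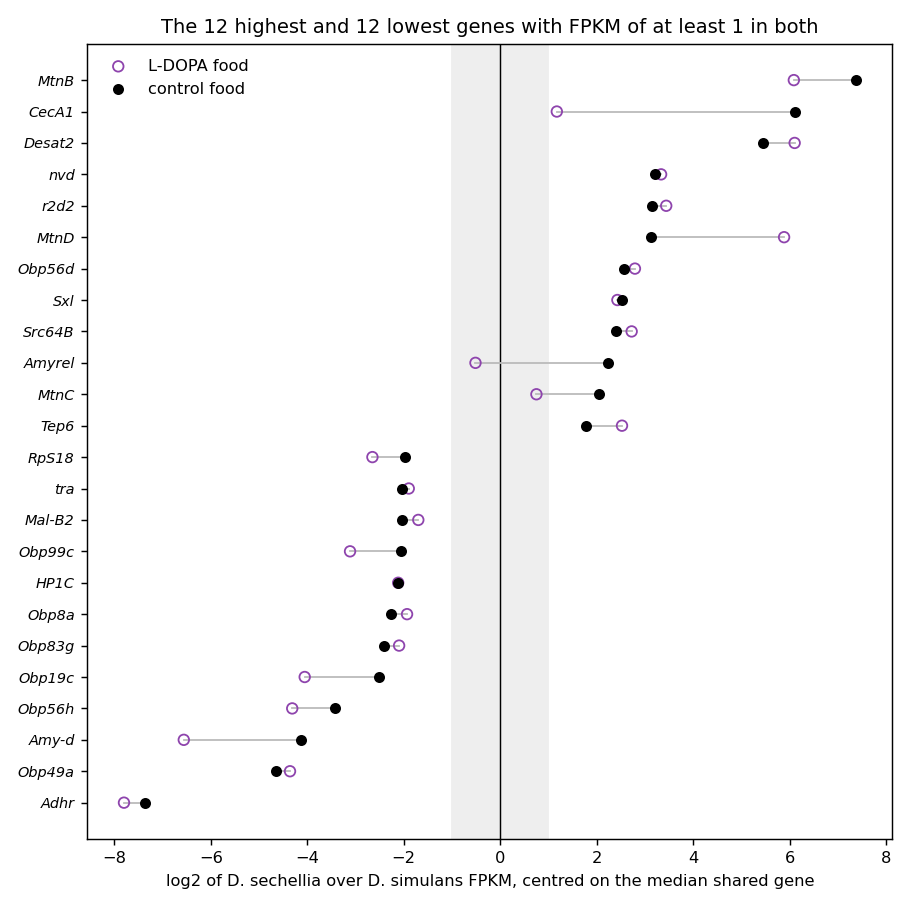
Centred log2 of *D. sechellia* over *D. simulans* FPKM (horizontal) for the 12 highest and 12 lowest genes with at least 1 FPKM in both species, on L-DOPA food (open circles) and control food (filled circles), with the range within 2-fold shaded. *nvd*, *r2d2*, *Sxl* and *Obp49a* have close differences on both foods, while *CecA1* (6.11 on control food), *MtnD* (3.12) and *Amyrel* (2.24) moved by more than 2-fold.

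FPKM divides by the length of the gene model, and the models of the annotations were not alike. The annotated span was shorter in *D. sechellia* for 108 of the 114 genes, and the median span was 1.55 times as long in *D. simulans*. In the whole tables, small RNA classes left out, 48.3% of spans in *D. sechellia* and 33.1% in *D. simulans* were multiples of 3, as the span of a coding sequence without introns and untranslated ends would be. Other spans can also be multiples of 3. Among the 114 genes, 43 spans in *D. sechellia* and 34 in *D. simulans* were multiples of 3. For 52 genes the spans were within 1.5 times of each other, and these had a median centred difference of -0.40. The 61 genes with a ratio and spans further apart had a median of 0.39. The Spearman rho between span ratio and centred difference was 0.22 across 113 genes. How much the gene models contributed to each difference was not tested. *DesatF*, *Desat2*, *Obp49a* and *Obp56e* are among the genes with spans within 1.5 times of each other. Of the 114 genes, 8 in *D. sechellia* and 43 in *D. simulans* share their listed span with another gene. Those in *D. simulans* include *Dat*, *Dsk*, *Cp110*, *Tep6*, *Rel*, *Obp84a*, *pnt*, *beta4GalT7* and *Sry-alpha*, besides genes marked so above. Too few reads for the authors' own test were noted for 9 genes in *D. sechellia* and 9 in *D. simulans*, among them *Obp56e* and *Adhr* in *D. sechellia* and *DesatF* and *CecB* in *D. simulans*, so their low values are imprecise.

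**Figure D5:**
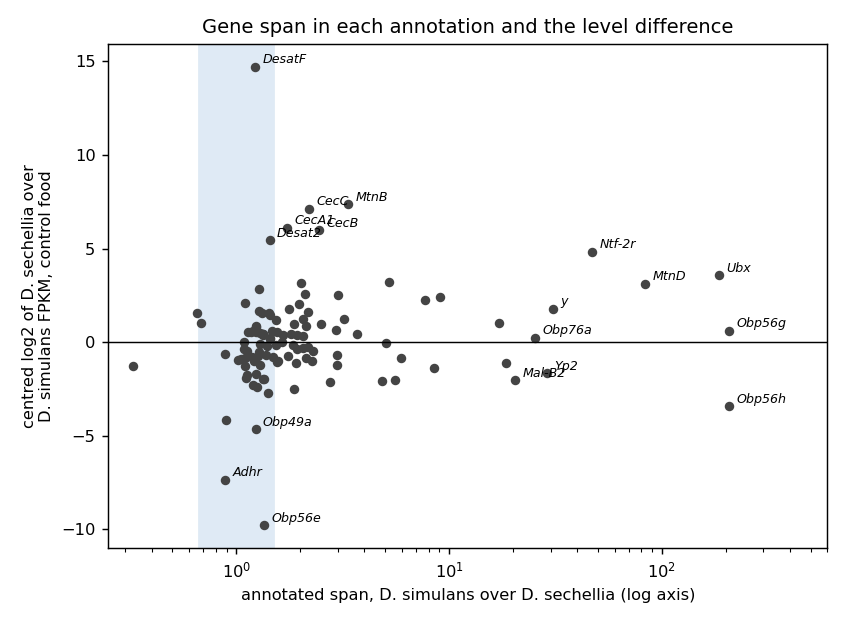
Centred log2 of *D. sechellia* over *D. simulans* FPKM on control food (vertical) against the ratio of annotated spans, *D. simulans* over *D. sechellia* (horizontal, log axis), 1 point per gene for 113 genes, with spans within 1.5 times shaded. *DesatF*, *Desat2*, *Obp49a* and *Obp56e* lie in the shaded range, while *Ubx* and *Obp56h* have spans more than 100 times as long in *D. simulans*.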

How the data were processed

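RNA from whole females was sequenced as single-end, mRNA-selected libraries. Per the study's methods, the authors mapped the reads with Bowtie2 under default parameters to dsec_caf1 and ASM75419v3 (BDGP6 for *D. melanogaster*) and ran Cuffdiff on the Ensembl annotations, with geometric normalization and gene length correction. Tool versions are not given in the sources used here. The authors deposited FPKM values pooled over the 3 libraries of a food. Depth is not held by the tables, and intervals could not be computed. The deposited fold changes, test scores, p-values and q-values compare foods within a species and were not used.

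Symbols were matched exactly, differences were computed without a pseudocount and centred on the median shared gene, and 2-fold (a centred log2 difference of 1 in size) and 4-fold were used as limits. Starts were counted from 1: after adding 1, 9162 of 9207 *D. melanogaster* genes alone at their locus start as in the Ensembl annotation of BDGP6. Genes and the 16 lists, given as symbol patterns, were chosen with earlier results of these data known. The patterns for chemoreceptor, vision, mitochondrial, cuticle and male genes took in 0 of the 114 genes, and that for eggshell and yolk genes took in the centriolar *Cp110* beside *Yp2*. Named genes were by rule the 12 largest differences in each direction with at least 1 FPKM in both species, genes listed at 0 in 1 species, the 4 largest differences per list, genes the paper names and the 5 most abundant genes in each species. Other names were chosen after their values were seen. The centring code was run on simulated data in which few genes changed, about equally often up and down. That run cannot show whether the median shared gene is the right centre. Sequences were not used here. The work used Python 3.11.15, numpy 2.4.6, pandas 2.3.3, scipy 1.17.1 and matplotlib 3.10.9.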

Additional observations from a re-analysis of the deposited data

Results flagged for a closer look

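*Sry-alpha* was the only one of the 113 genes whose species difference was past 2-fold on both foods and opposite in direction. Its centred log2 difference was 1.62 on control food and -1.95 on L-DOPA food, from an FPKM of 21.6 in *D. sechellia* and 3.13 in *D. simulans* on control food and 1.20 in *D. sechellia* and 1.75 in *D. simulans* on L-DOPA food. The difference between foods was not tested, since each value pools 3 libraries, and *Sry-alpha* shares its span with another gene in *D. simulans*.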

How the results depend on the processing

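Without centring, 60 genes were higher in *D. sechellia* by 2-fold and 9 lower, and *HP1B* (0.10), *Dat* (0.061) and *Dsk* (0.033) were no longer lower. Among genes with spans within 1.5 times of each other, of which there were 52, 12 were higher and 12 lower when centred on their own median (log2 0.76), and 9 and 14 with the centre of all genes. Sign changes below are listed only for genes past 2-fold in the main comparison, and some genes within 2-fold also changed sign. With FPKM multiplied by the annotated span, introns included, over the 70 genes alone at their locus, 18 were higher and 19 lower. These counts are out of 70 genes, where 31 and 27 are out of 113. There *Ubx* (-3.54) and *Amy-p* (0.79) changed sign. That setting and the centring on genes other than odorant-binding protein genes were chosen after seeing the data. A pseudocount of 1 changed the sign of *Obp73a* (-0.088) and *r-cup* (-0.043). L-DOPA food changed the sign of *Obp73a* (-0.10), *Amyrel* (-0.51), *Sry-alpha* (-1.95), *Obp99b* (-0.72) and *Hmr* (0.26), and the cause was not tested. Under the other settings (FPKM of at least 5 in either, at least 1 in both or no minimum, and the other centres) both counts stayed within 1.5 times of 31 and 27, and no called gene changed sign. No mitochondrially encoded gene is among the 114, so leaving them out changed nothing. Libraries could not be left out in turn, and no paired analysis was possible because each value pools 3 libraries. The tables' low values limit what can be said of genes near 1 FPKM.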
